A study of Mus musculus with 18 samples.

Results

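The comparison set the RNA of editing-deficient liver that remained after RNase digestion, with no MDA5 protein added, against the undigested RNA of the same genotype. It rests on 6 of the 18 peak lists of the series, 3 RNase-only and 3 input lists of *Adar*-/-; *Mavs*-/- mice, chosen by genotype and fraction. ADAR1, the enzyme that edits adenosines in base-paired RNA to inosine, is missing from these mice, and the additional loss of MAVS, the adaptor downstream of the RNA sensor MDA5, keeps them alive. The labels name the tissue liver and give an age of 8 to 9 days, the mice came from a backcross to Bl6J, and the *Mavs*-/- group, used here as a second genotype, carries the same *Mavs* deletion with ADAR1 present. Sample titles call the *Mavs*-/- mice wild-type, although they lack MAVS too. The labels do not say whether the 3 libraries of a group come from separate animals, although the study describes biological triplicates, so p-values measure the spread between these libraries.

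RNase A cuts single-stranded RNA after pyrimidines and RNase T1 after guanosines, so double-stranded stretches are the RNA expected to outlast the pair of enzymes. Long hairpins of inverted repeats in introns and 3′ UTRs, overlapping transcripts from both DNA strands and the double-stranded RNA of mitochondria, whose circular genome is transcribed on both strands, are known sources. The liver makes most plasma proteins, and messages such as albumin and the apolipoproteins are among its most abundant RNAs.

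The RNase-only peaks had been called with the input of the genotype as control, and the input peaks without a control. A gene without an RNase-only peak is therefore a gene whose digested RNA was not enriched over input, which cannot be told apart from a gene with no surviving RNA. Read counts are not in the lists, so the depth behind each peak is unknown. Peak lists of RNase-only RNA held 5798, 6094 and 5605 peaks in replicates 1, 2 and 3, and covered 1191756 to 1329546 bases. Input lists held 6991, 8868 and 8948 peaks and covered more bases, between 3391684 and 3510219. A gene was called covered when peaks on its own strand reached at least 10 bases of its GENCODE M21 exons (GRCm38) in at least 2 of the 3 libraries, and kept when it was covered in both fractions.

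Before any result, the tissue label was set against marker genes, and RNase-only peaks covered other markers than input peaks did. Since RNase-only peaks were called against input, a marker strong in input could lack a peak without being absent from the digested RNA. All 10 hepatocyte markers were covered in each of the 3 input libraries and 0 of 10 in each RNase-only library. Of 42 messages of secreted liver proteins, 42 were covered in every input library and 0 in every RNase-only library. Of 32 genes of colon and intestinal epithelium, 32, 29 and 27 were covered in RNase-only replicates 1, 2 and 3, against 2, 2 and 3 in input. Of 11 smooth muscle genes, 8, 8 and 8 were covered, against 0, 0 and 1. The intestinal and smooth muscle lists were drawn up after these values had been seen, and with them lists of other organs as a comparison. Lists of 10 genes each for stomach, kidney, lung, brain, striated muscle and testis had 0 members covered in every RNase-only library, the skin list had 3 of 10 in replicate 1 and 0 in the others, and the pancreas list had 1, 2 and 1 of 10. Small-intestine epithelium had 2, 1 and 1 of 14 and B and plasma cells 3, 3 and 2 of 10. Of all 55536 GENCODE M21 genes, RNase-only replicates 1, 2 and 3 covered 1870, 1434 and 1229, and input replicates 3038, 3710 and 3746. A list of 10 with 0 covered after RNase thus lies near the share over all genes and says little about its organ. Of the 32 intestinal genes, 2 were input-covered in this liver, *Tff3*, a mucosal trefoil peptide, and *Krt8*, an epithelial keratin.

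Lists fixed earlier covered the other cells of the organ. Kupffer cell markers were covered for 8, 7 and 7 of 10 genes in input and for 0 in RNase-only libraries, and endothelial markers for 7, 6 and 7 of 9 against 0. The list for cholangiocytes, the cells that line bile ducts, had 4 of 6 members covered in every RNase-only library (*Krt19*, *Krt7*, *Epcam* and *Cldn4*) and 0, 1 and 1 in input. *Krt19* and *Epcam* belong to the intestinal list as well. Of 4 input-covered stellate cell markers, 2 were kept (*Dcn* and *Col1a1*), and of 5 erythroid and 3 neutrophil and myeloid progenitor markers none. Over all input-covered genes 10.1% were kept. None kept among so few Kupffer cell, endothelial, erythroid or neutrophil markers lies near that share. The RNase-only libraries of the *Mavs*-/- mice covered 30, 30 and 27 of the 32 intestinal genes and 0 of the 10 hepatocyte markers. Exon peaks of the RNase-only libraries are thus not described here as RNase-resistant liver RNA. They are called RNase-only peaks, and what brought intestinal genes into them was not tested.

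**Figure D1:**
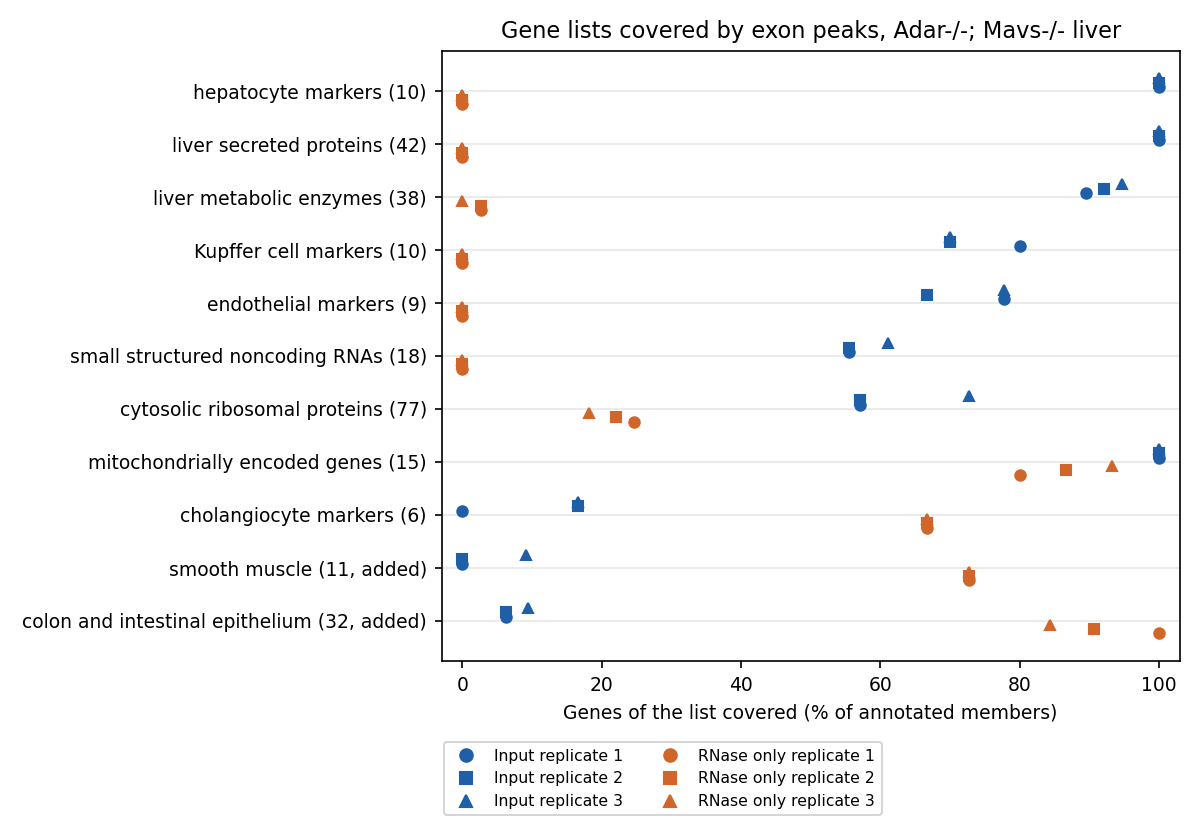
Share of each gene list covered by exon peaks on the gene's strand in the 3 input (blue) and 3 RNase-only (orange) libraries of *Adar*-/-; *Mavs*-/- liver; each point is 1 library, the number of annotated members stands beside each list, and lists marked added were drawn up after the values had been seen. Hepatocyte markers sit at 10 of 10 in input and 0 in RNase-only libraries, and the intestinal list at 27 to 32 of 32 in RNase-only against 2 or 3 in input.

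Short stretches from both kinds of peak show the RNA in question. Each line gives 30 bases around the summit of a peak in a coding exon or noncoding exon, from the GENCODE M21 transcript on the strand of the gene, with capitals for the bases that RNAfold paired in a window that reached 50 bases to either side of the summit. The first lines come from RNase-only replicate 1 and stood where no input peak was called, and the last lines come from input replicate 1, in messages with no RNase-only peak.
Gm37194, RNase-only, chr14:50062249-50062278, plus strand: CgGgAgGtGGGGCAgcgTGTCTCTgTgCgG
Misp, RNase-only, chr10:79826676-79826705, plus strand: CTCcacgaaGAGaCAGgGGCcGCCCATCCC
S100a14, RNase-only, chr3:90528153-90528182, plus strand: tggGAGTTgATTGgAGaagCAGCcaaGAGT
Apob, input, chr12:8012114-8012143, plus strand: AAGTTgatgGTAtCTggaACgtTGAAGtag
C3, input, chr17:57224102-57224131, minus strand: tccccGTaccaGATCcactTCaccAAGAca
Alb, input, chr5:90472484-90472513, plus strand: GtGTCTGCTGCatgagaagacccCAgtgag
The windows folded to −41.6 kcal/mol for *Gm37194*, −24.4 for *Misp* and −22.3 for *S100a14*. Those of *Apob*, *C3* and *Alb* folded to −21.0, −16.8 and −21.4 kcal/mol. Some windows not printed here went the other way, at −14.6 for *Gpa33* and −16.9 for *Klf4* in RNase-only replicate 1. In input replicate 1 *Lrp1* and *Pzp* did so, at −38.5 and −28.3. Others went the same way as the printed ones, at −29.6 for *Prss32* in RNase-only and −16.8 for *Fn1* and −17.4 for *Mat1a* in input. *Muc13*, also RNase-only, folded to −18.7. The printed stretches show what the peaks hold and were not picked to represent the folding of a fraction, which is given over all windows further on.

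Few input-covered transcripts kept an RNase-only peak. Of 3336 input-covered genes, 336 were kept, which is 10.1% (95% Clopper-Pearson interval 9.07 to 11.1%, counting error only). In 2557 genes (76.6%) not 1 exon base was covered in any RNase-only library, and 443 genes (13.3%) had RNase-only bases but fell short of the rule. Library by library, the share of input-covered genes that were also covered after RNase was 12.9% in replicate 1, 11.8% in replicate 2 and 10.2% in replicate 3. Conversely, 1197 genes were covered in RNase-only libraries, and 861 of them (71.9%) lacked input support, 741 without a single input base in any library. The share kept hardly moved with the strength of the input peaks, at 10.4, 12.0, 8.99 and 8.87% from the strongest to the weakest of 4 equal groups of genes ranked by summed input score, and the intervals of all 4 groups overlapped. Leaving out RNase-only replicate 1, 2 or 3 left 210, 180 and 206 kept genes, and a minimum peak area of 1000 in place of 500 left 38.

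The kept genes were mostly protein-coding, 311 of 336 (92.6%), where 81.7% of input-covered genes were. Processed pseudogenes made up 12.0% of input-covered genes and 4.76% of kept ones. None of the 37 snoRNA, 17 snRNA and 17 miscellaneous RNA genes covered in input was kept. Of a list of small structured noncoding RNAs, 11 of 18 were input-covered and 0 kept, and a list of long noncoding RNAs had 8 input-covered and 0 kept. Per the study's methods, protected RNA went through a kit meant to remove small digestion products. What that step does to short RNAs was not tested. The 3′ UTR of kept genes had a median of 1280 nt, against 970 nt in genes without any RNase-only base, and their longest transcripts a median G+C share of 48.6 against 52.1%.

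Of 15 listed mitochondrial genes for proteins and rRNAs, all input-covered, 13 were kept, against 10.1% of all input-covered genes. With the transfer RNA genes, of which 3 of 10 input-covered ones were kept, 16 of 25 input-covered mitochondrial genes were kept. The listed genes encode subunits of the respiratory chain and the mitochondrial rRNAs. *mt-Co1*, a subunit of cytochrome c oxidase, had 1451, 1095 and 1188 of its 1545 exon bases covered after RNase and all 1545 in each input library. *mt-Atp6*, a subunit of ATP synthase, had 668, 668 and 681 of 681 bases covered, and *mt-Co3* had 719, 707 and 718 of 784. Every RNase-only library covered most of each of these genes, *mt-Co1* least completely in replicates 2 and 3, and the RNase-only bases of *mt-Co1*, *mt-Atp6* and *mt-Co2* lay wholly under input peaks. *mt-Nd5*, a complex I subunit, was covered less evenly, for 398, 893 and 1047 of 1824 bases, with replicate 1 lowest. *mt-Rnr2*, the large ribosomal RNA, had 0, 92 and 407 of 1582 bases after RNase and 1405 in each input library. *mt-Rnr1*, the small one, had none after RNase and all 955 in each input library.

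RNase-only peaks of the mitochondrial genome fell on both strands. The plus strand carried 7861, 7683 and 9232 covered bases and the minus strand 2812, 11277 and 10625, so replicate 1 was low on the minus strand only. Positions covered on both strands numbered 1082, 5973 and 7116, or 38.5, 53.0 and 67.0% of the minus-strand bases. Input was covered on both strands more widely, with 15447 to 15710 bases on the plus strand and 11352 to 14160 on the minus strand. *mt-Nd6*, a complex I subunit encoded on the minus strand, had 143, 519 and 519 of its 519 bases covered after RNase.

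Ranked by the summed score of their RNase-only peaks, a measure comparable only within a library, 8 of the 10 strongest kept genes covered in all 6 libraries were mitochondrial. A peak that spanned several genes counted in full for each, so these 8 are not separate signals. *mt-Atp8* and *mt-Atp6* had the same scores in all 3 libraries. These genes, *mt-Co3* and *mt-Nd4* share exon bases with another gene. The other 2 of the 10 genes carried short peaks in nuclear loci. *Memo1*, a mediator of cell motility, had 490, 48 and 49 RNase-only exon bases and 16 or 17 input bases per library. *Gm37194*, a gene of unverified type, had 120, 118 and 118 RNase-only bases of 3031. Its peaks covered 98, 94 and 93 bases in input.

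Nuclear messages that were kept carried peaks at their 3′ ends. *Atp1b1*, the beta subunit of the sodium-potassium pump, had 944, 787 and 738 RNase-only bases of 3081, and 99.8% of those on its longest coding transcript were in the 3′ UTR, where 23.7% of its input bases were. *Dstn*, an actin-depolymerising protein, had 995, 568 and 686 bases, 96.6% of them in the 3′ UTR. *Ivns1abp*, an actin-associated protein, had 714, 657 and 675 bases, 97.7% of them in the 3′ UTR, and none of these lay under an input peak. These 3 genes, and the last 3 of this paragraph, came next by the same rank once mitochondrial genes were passed over, a choice made after the values had been seen. *Tgoln1*, a trans-Golgi protein, *Ccni*, a cyclin, and *Car2*, a carbonic anhydrase, had all their RNase-only bases in the 3′ UTR, at 834, 1495 and 368 bases, 770, 618 and 742 bases, and 509, 352 and 463 bases. *Ltbp3*, which binds latent TGF-beta, differed from these, with 28, 28 and 67 bases, 82.1% of them coding and none in the 3′ UTR. *Dsp*, a desmosomal protein of epithelia, had 480, 876 and 446 bases. *Ahnak*, a giant scaffold protein, had 612, 816 and 1111 of 19938 bases.

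The strongest input messages without any RNase-only base were those of hepatocyte secretion and metabolism. *Apob*, the scaffold of liver lipoproteins, had 13834, 13809 and 13859 of 13934 exon bases under input peaks and 0, 0 and 0 under RNase-only peaks. *Alb*, serum albumin, had 2276, 2031 and 2026 of 2342 bases in input and 0 after RNase. *C3*, the central complement component, had 5071, 5079 and 5080 of 5143 bases and 0 after RNase. *Fn1*, *Lrp1*, *Trf*, *Mat1a* and *Pzp*, which encode plasma fibronectin, a lipoprotein receptor, transferrin, an S-adenosylmethionine synthetase and a plasma protease inhibitor, also had 0 RNase-only bases in each of the 3 libraries. So did *Gm20425*, which shares exons with *Trf* and whose reads cannot be told apart from it, and the transfer RNA *mt-Tm*. The same 10 genes had 0 RNase-only bases in all 3 *Mavs*-/- libraries. Of the list of liver metabolic enzymes, 35 were input-covered and 0 kept.

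Other lists stood on either side of the 10.1% background. Of 45 input-covered cytosolic ribosomal protein genes, 5 were kept (*Rpl3*, *Rpl6*, *Rpl15*, *Rpl23* and *Rpl41*). Of 14 input-covered messages with known regulatory structures, 7 were kept (*Azin1*, *Slc40a1*, *Eif4a2*, *Ybx1*, *Pabpc1*, *Mat2a* and *Col1a1*). *Mat2a*, whose 3′ UTR holds hairpins read by a methyltransferase, had 76, 447 and 219 RNase-only bases, all in the 3′ UTR and 92.5% of them under input peaks. In *Ybx1* and *Pabpc1*, RNA-binding proteins, all RNase-only bases were again in the 3′ UTR, at 372, 272 and 178 and at 179, 116 and 175 bases, and none lay under an input peak. The iron-responsive hairpin of *Slc40a1*, an iron exporter, sits in its 5′ UTR, where no RNase-only base fell, and its 0, 225 and 298 bases were in the 3′ UTR. Of 10 input-covered histone genes, 4 were kept (*Hist1h1c*, *Hist1h2bc*, *H1f0* and *H3f3b*), each with all its RNase-only bases in the 3′ UTR. Of 11 input-covered selenoprotein genes, 1 was kept, *Txnrd1*, a thioredoxin reductase, with 128, 576 and 203 bases. With so few members a list, 1 or 2 genes move its share a good deal.

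Interferon-stimulated genes and sensors of double-stranded RNA had 7 members input-covered and 0 kept, while other members were covered after RNase without input support. *Ifih1*, which encodes MDA5 itself, had 823, 191 and 322 RNase-only bases, 97.4% of them coding, and no input base. In the MDA5-protected libraries, to which recombinant MDA5 had been added, *Ifih1* had 2393, 2309 and 2434 bases. Per the study's methods, that protein was made in bacteria from a mouse MDA5 cDNA. The source of the *Ifih1* bases in either fraction was not tested. *Oas1a* and *Oas1g*, synthetases activated by double-stranded RNA, and *Irf7*, an interferon regulatory factor, were also covered after RNase and had no input base. *Adar* itself had 0 RNase-only exon bases and 0, 452 and 285 in input, and *Mavs* none in any of the 6 libraries. The 3 genes cloned in the study, *Rnf168*, *Knl1* and *Zkscan3*, had no RNase-only exon base, and only *Zkscan3* had an input peak, of 434 bases in replicate 3.

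Within transcripts, RNase-only peaks lay near the 3′ end. On the longest coding transcript of each gene, the 3′ UTR took 75.3, 73.4 and 74.4% of the RNase-only bases and 41.6, 39.4 and 37.5% of the input bases. Every RNase-only library was above every input library, and the difference of means was 34.9 percentage points (p = 0.10 by a two-sided exact permutation test, which cannot go lower with 3 libraries against 3). The coding sequence took 24.3% ± 0.809 (SD, n = 3) of RNase-only and 56.4% ± 1.98 (n = 3) of input bases, and the 5′ UTR 1.32% ± 0.238 and 4.12% ± 0.0525 (exact permutation p = 0.10 for each). Over the annotated length of the kept coding genes alone the 3′ UTR makes up 49.6%. The shares above count peaks in all coding genes, kept or not, so this value belongs to another set of genes.

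The centre of the RNase-only peaks lay at a relative position of 0.816, 0.812 and 0.828 of the kept transcripts, where 0 is the 5′ end and 1 the 3′ end, and that of input peaks at 0.473, 0.444 and 0.441 (exact permutation p = 0.10). Distance from the 3′ end was measured over all coding genes with a peak, and was added after the data had been seen. Its library medians were 511.5 to 571.5 nt after RNase and 1563.5 to 1601.5 nt in input. Cut into 10 equal bins, the kept transcripts had most RNase-only bases in the last bin, which held 35.0, 32.4 and 35.5% of RNase-only bases and 4.48, 3.85 and 3.44% of input bases. The first bin held 0.810 to 1.19% of RNase-only bases and 7.97 to 8.60% of input bases. RNase-only coverage climbed towards the 3′ end in every library, and input coverage was lowest in the last bin. Calling against input favours RNase-only peaks where input is low, and how much of the shift follows from this was not tested.

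**Figure D2:**
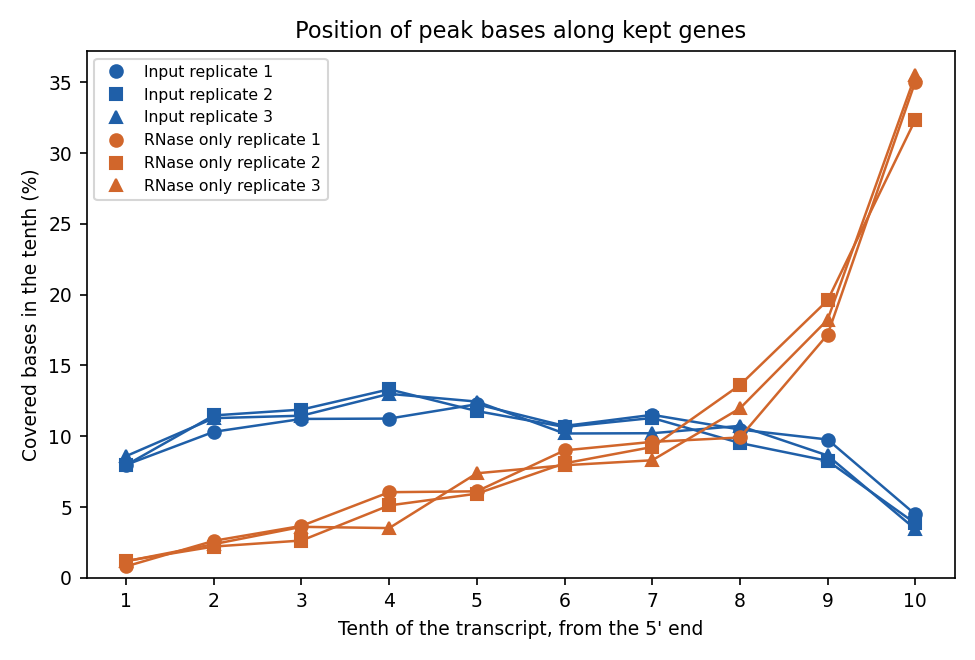
Share of peak bases in each of 10 equal bins along the longest transcript of kept genes, from the 5′ to the 3′ end; each line is 1 library, input in blue and RNase-only in orange. The last bin holds 32.4 to 35.5% of RNase-only bases and 3.44 to 4.48% of input bases.

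Kept genes carried RNase-only peaks over a small part of their exon bases. The covered share was the median over kept genes in each library, with genes that had no base there included. These medians averaged 5.34% ± 0.984 (SD, n = 3) after RNase and 19.4% ± 1.75 (n = 3) in input, with no overlap between the libraries (exact permutation p = 0.10). Of 311 kept coding genes, 208 (66.9%) had RNase-only bases in the 3′ UTR only, 70 in the coding sequence and 3′ UTR, and 8 in the coding sequence only. The same genes had input bases in the 3′ UTR only in 20 cases. Among genes of at least 3 exon blocks, 71.0% of the RNase-only-covered ones had 1 block covered, against 29.0% of the input-covered ones. A peak in the same gene was often elsewhere in it, since 105 of the 336 kept genes (31.2%) had no RNase-only base under an input peak, and 38.6% of all RNase-only exon bases in kept genes lay under one. Calling against input favours such places.

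**Figure D3:**
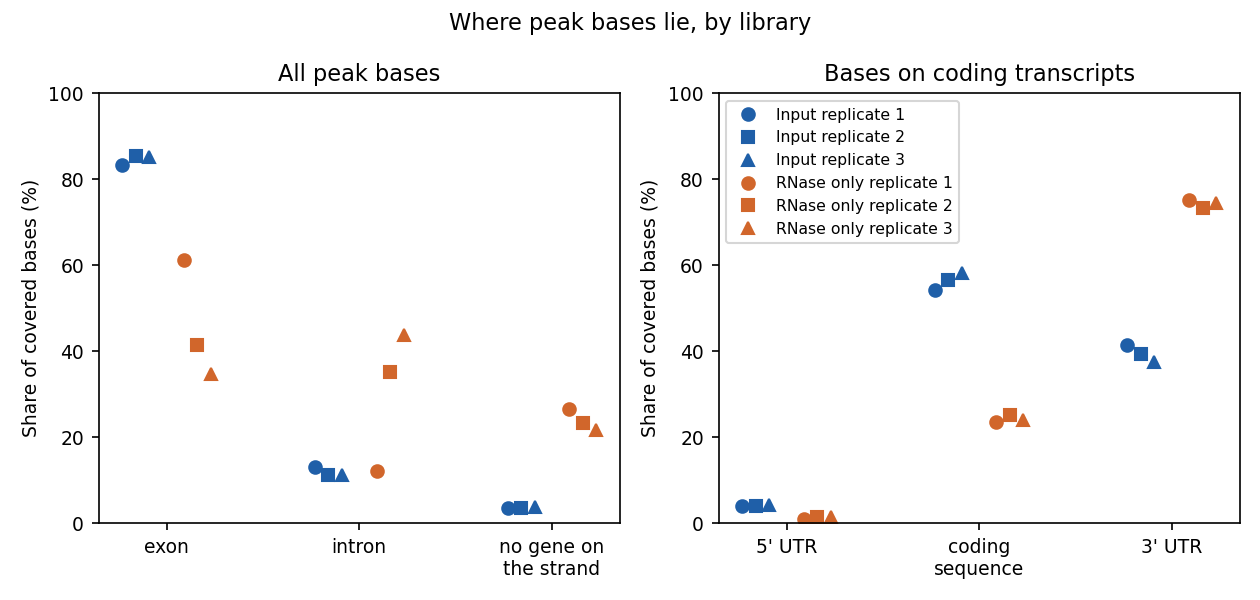
Share of covered bases by annotation in each library, for all peak bases (left) and for bases on the longest coding transcripts (right); points are libraries, input in blue and RNase-only in orange. RNase-only libraries hold 73.4 to 75.3% of coding-transcript bases in 3′ UTRs and input libraries 37.5 to 41.6%, and the intron share of RNase-only replicate 1 sits at the input level.

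Intronic peaks divided the 3 RNase-only libraries. Introns held 12.3% of the peak bases of replicate 1, 35.2% of replicate 2 and 43.7% of replicate 3, against 13.0, 11.1 and 11.2% in input. Replicate 1 lay within the range of input and the other libraries above it, so that the fractions overlapped (exact permutation p = 0.20). Exons held 61.2, 41.4 and 34.7% of RNase-only bases and 83.4 to 85.4% of input bases. Bases with no gene on their strand were 26.6, 23.4 and 21.6% after RNase and 3.51 to 3.70% in input. Peaks opposite an exon took 3.01 to 3.40% of RNase-only bases and 3.33 to 3.45% of input bases, so exon peaks of both fractions followed the strand of the gene. The 3′ UTR share, by contrast, spanned under 2 percentage points across the RNase-only libraries.

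Windows of 50 bases to either side of the summits of exon peaks differed in composition and in predicted folding. The median G+C share was 45.5, 46.5 and 47.5% in the RNase-only libraries and 55.4, 54.5 and 55.4% in input, a difference of −8.58 percentage points (exact permutation p = 0.10). The median A share was 26.7, 26.7 and 25.7% against 22.8, 23.8 and 23.8% (exact permutation p = 0.10). Predicted folding was weaker in the digested fraction, with median energies of −19.8, −20.7 and −21.1 kcal/mol against −26.3, −25.9 and −25.9 kcal/mol (exact permutation p = 0.10). No library of one fraction overlapped the other in any of the 3 measures.

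In windows of like G+C share the medians of the fractions lay within 1 kcal/mol of each other. At 50 to under 60% G+C, the medians were −26.4, −26.7 and −26.4 kcal/mol in RNase-only libraries and −26.4, −26.3 and −26.1 kcal/mol in input, and at 40 to under 50% they were −20.1, −20.7 and −20.4 against −20.9, −20.9 and −20.7. Within 3′ UTRs the G+C share still differed, at 40.6, 42.6 and 44.6% after RNase and 54.5, 53.5 and 53.5% in input. Within coding sequence it was 52.5% in each RNase-only library and 55.4% in each input library. The few RNase-only windows in 5′ UTRs, 20, 31 and 22 of them, had G+C shares of 55.0, 79.2 and 85.1%. A window of this length does not reach the distant arm of an inverted repeat, so long-range pairing was not tested.

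**Figure D4:**
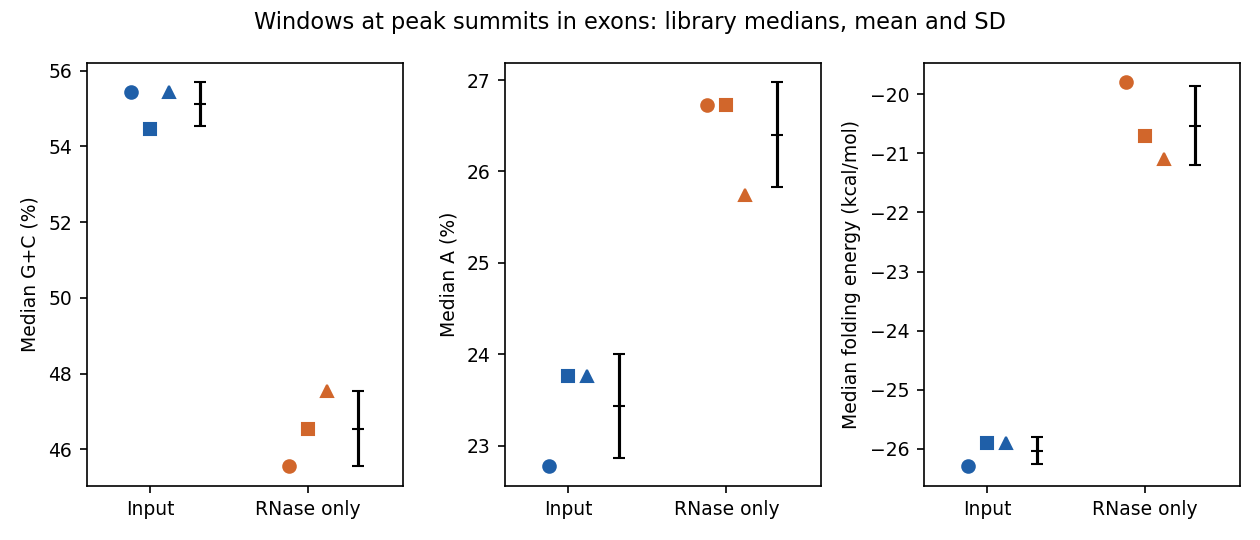
Median G+C share, A share and folding energy of windows of 50 bases to either side of the summits of exon peaks; each point is the median of 1 library, and bars give the mean and SD of 3 libraries. RNase-only medians lie at 45.5 to 47.5% G+C and −21.1 to −19.8 kcal/mol, input medians at 54.5 to 55.4% and −26.3 to −25.9 kcal/mol.

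Most RNase-only peaks stood where no input peak was called. As they were called against input, strong input signal makes such a peak less likely, so the share outside input is partly set by the calling. Peaks with a neighbour at most 200 bp away in another RNase-only library were joined into 5038 regions, and 4664 of them (92.6%) overlapped no input peak of the 3 libraries on the same strand. Per library the share was 94.5, 92.1 and 93.8%. Without RNase-only replicate 2 or 3 there were 1814 and 2368 outside regions, and a minimum area of 1000 left 1191. The 318, 481 and 349 peaks inside input held 44.0, 61.2 and 56.2% of each library's summed score, but the strongest 4 peaks of each library alone held 34.7, 54.6 and 49.7%. Median scores were close, at 788, 804 and 766 inside and 721, 722 and 716 outside. Median lengths were 175.5, 178 and 194 nt inside and 167, 164 and 193 nt outside (exact sign-flip p = 0.25, the smallest that 3 pairs allow).

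The outside regions fell into kinds that differed in other readouts. Exons of genes without input support held 1338 of them (28.7%), introns of such genes 1221 (26.2%), introns of input-covered genes 413 (8.86%) and exons of input-covered genes 165 (3.54%). A further 868 had no gene on either strand and 659 lay opposite a gene. Of all outside regions, 22.3% carried an MDA5-protected peak. The share was 9.12% in exon regions of genes without input support, 44.8% in introns of input-covered genes and 34.8% in introns of others. It was 18.8% where no gene lay on either strand, 21.1% opposite a gene and 4.24% in exon regions of input-covered genes. A partner region on the opposite strand stood across from 15.0% of all outside regions. It did so for 1.87% of the exon regions of genes without input support and for 18.2 and 16.1% of the intronic ones. Regions opposite a gene had such a partner in 40.5% of cases. All 3 libraries supported 27.9% of all outside regions and 42.3% of the exon regions of genes without input support. For introns the shares were 16.2 and 17.0%. Such support needs replicate 1, which had 837 intronic peaks outside input, against 2032 and 2233 in replicates 2 and 3. Its exon peaks outside input numbered 2613, against 1765 and 1445. Of 1503 exon regions outside input, 1379 (91.7%) lay at least 90% within annotated exons.

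**Figure D5:**
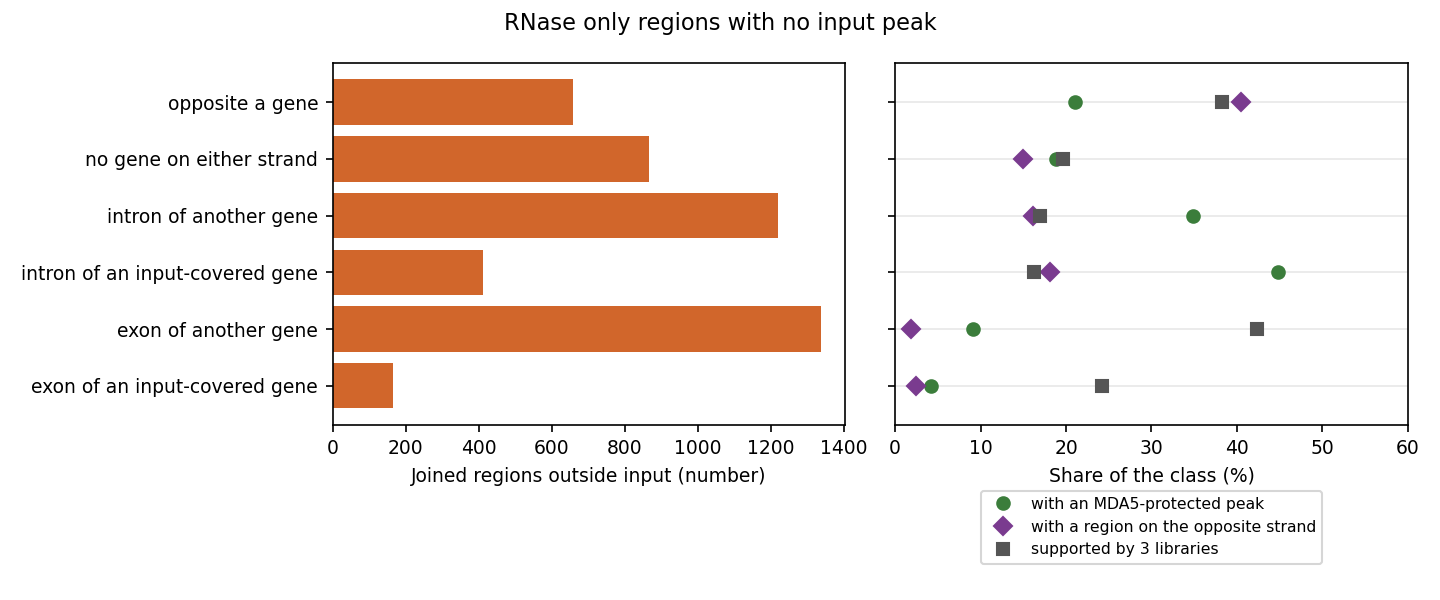
Number of joined RNase-only regions with no input peak by class (left) and the share of each class with an MDA5-protected peak, with an RNase-only region on the opposite strand and with support from all 3 libraries (right). Exon regions of genes without input support are the largest class, with 1338 regions, and have MDA5-protected peaks in 9.12% of cases. The share is 34.8 and 44.8% for introns and 22.3% over all outside regions.

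The strongest outside regions supported by 3 libraries were, apart from the short *Gm37194* peak, exons of epithelial genes. *Muc13*, a cell-surface mucin, had a region of 1132 nt on chromosome 16 (33818872-33820003, plus strand), and 2213, 2229 and 2028 of the gene's 3038 exon bases were covered after RNase, none in input. *Cdx1*, a homeobox factor of intestinal identity, had 1667, 1556 and 1511 of 1750 bases covered and none in input. *Gpa33*, an antigen of colonic epithelium, had 2068, 1710 and 1654 of 2742. *Mptx1*, a pentraxin, *Misp*, an actin-binding protein, *Tmem45b*, *S100a14*, *Prss32*, a serine protease, and *Klf4*, a factor of differentiating epithelium, completed the list. In each of these genes the 3 *Mavs*-/- RNase-only libraries had a peak over the same region, and MDA5-protected libraries had one in all 3 for each but *Misp*, with 0, and *Klf4*, with 2.

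Several members of the intestinal list were covered over much of their length. *Clca1*, a goblet cell product, had 2752, 2377 and 2797 of 3777 exon bases, 90.1% of them coding, and *Car1*, a carbonic anhydrase, 731, 1006 and 753 of 1248. *Hoxb13*, a homeobox gene of the posterior body, had 1279, 1148 and 1094 of 2206 bases. *Krt20*, a keratin of differentiated intestinal epithelium, had 1286, 1677 and 1202 of 1927. None of these had an input base in any of the 3 libraries. Among smooth muscle genes, *Cnn1* had 982, 1003 and 864 of 2736 bases and *Des* 320, 1003 and 1331 of 3754. *Igha*, the constant region of immunoglobulin A, had 453, 459 and 337 bases and *Jchain*, which joins its polymers, 322, 303 and 0.

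Introns and intergenic stretches gave weaker regions, chosen here after their values were seen. In *Dpyd*, a pyrimidine-degrading liver enzyme, an intronic region of 513 nt scored 5482, 4674 and 2534 in replicates 1, 2 and 3, and had MDA5-protected peaks in 3 of 3 libraries. In *Tom1l2* an intronic region of 299 nt on the minus strand of chromosome 11 (60239349-60239647) faced a region of 264 nt on the plus strand (60239383-60239646). Both strands scored alike, at 3715, 2659 and 2313 and at 3681, 2423 and 2357. A region of 858 nt in an intron of *Htt* scored 1654, 3873 and 5357, lowest in replicate 1.

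Inside input, the highest scores came from short regions with no gene on their own strand. A region of 93 nt on chromosome 1 (5170573-5170665, minus strand) scored 1543970, 2161060 and 2957300, and one of 75 nt on chromosome 2 (18676507-18676581, plus strand) 714246, 642427 and 543118, neither with a gene on either strand. A region of 230 nt on chromosome 4 (122122845-122123074, minus strand), which lay opposite a gene, scored 726582, 3960240 and 1403360, above the other regions in replicate 2. All 3 regions were covered in all 3 MDA5-protected and all 3 *Mavs*-/- RNase-only libraries. Their sequences are not printed, as no genome was used here. The minus strand of the mitochondrial genome across *mt-Nd6* (12905-14496) scored 14128, 51174 and 45244.

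The second genotype gave similar shares. In *Mavs*-/- liver, 187 of 2236 input-covered genes were kept (8.36%), and per replicate the kept share was 14.1, 10.6 and 5.58%, against 12.9, 11.8 and 10.2% in editing-deficient liver, a difference of 1.53 percentage points within the spread (exact permutation p = 0.80). Equal numbers of peaks per library turned it to −0.54 points. Of the RNase-only-covered genes of editing-deficient liver, 714 were covered in *Mavs*-/- liver as well, 59.6% of the former and 73.1% of the latter. Kept genes shared numbered 121, or 36.0 and 64.7% of each list. The share of RNase-only peaks outside input was 92.7, 91.5 and 94.7% in *Mavs*-/- libraries, 0.515 points below the editing-deficient mean (exact permutation p = 0.80). *Mavs*-/- RNase-only replicate 3 stood apart, with 5′ UTRs at 12.2% of coding-transcript bases against 1.05 to 1.65% in the other RNase-only libraries of both genotypes, and with 14.1% of its bases opposite exons. Without that replicate the difference in kept share was −0.73 points, so its sign turned (exact permutation p = 0.60).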

How the data were processed

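Liver RNA libraries of *Adar*-/-; *Mavs*-/- and *Mavs*-/- mice were used as peak lists, in the groups their labels give. Per the study's methods, total RNA was digested with RNase A/T1 or left undigested, depleted of rRNA and made into strand-specific libraries. Per the submitters' processing notes the authors used Trim Galore 0.6.6 and Genrich 0.6.1, peaks of digested libraries being called against input. The authors' deposited score, an area under the significance curve of a peak, was used within a library only, and the smallest was 500.008. The −log10 adjusted p-values deposited by the authors were read but not tested. The lists give no depth. Intervals cover counting error only.

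GENCODE M21 (GRCm38) exons, at least 10 own-strand bases in 2 of 3 libraries, defined covered genes. The study annotated with VM23. Longest transcripts gave parts and positions. No genome was used, so sequence windows were read from transcripts for peaks whose summit lay in an exon of the longest one, although the design had foreseen genomic windows, and folded with ViennaRNA 2.7.2. Library values were compared by exact permutation tests (Python 3.11.15, numpy 2.4.6, scipy 1.17.1, figures with matplotlib 3.10.9). On simulated lists, 200 of 200 planted kept genes were recovered.

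Named genes were the 10 strongest kept in all 6 libraries, the 10 strongest in input without an RNase-only peak, the 10 strongest outside regions, up to 3 per transcript part, members of fixed gene lists, and the genes the study deleted or cloned. Genes and regions beyond these were chosen after their values were seen. Members and lists were chosen with earlier results of these data known, and the intestinal and other organ lists after the marker values. Alternatives were other supports, overlaps, scores, equal peak numbers, strands ignored, other transcripts and windows, each library left out and the replicate block. Repeat classes and MDA5 protection as such were not analysed here. One gene of a fixed list is not reported here.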

Additional observations from a re-analysis of the deposited data

Results flagged for a closer look

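Libraries outside the main comparison also covered genes of intestinal epithelium and smooth muscle above the level of input, on lists drawn up after the values had been seen. Of the 32 intestinal genes, 18, 20 and 22 were covered in the MDA5-protected libraries of *Adar*-/-; *Mavs*-/- liver, against 2, 2 and 3 in input, and the covered bases summed to 7284, 7728 and 7579 against 38315, 31723 and 28512 in the RNase-only libraries. In the RNase-only libraries of *Mavs*-/- liver 30, 30 and 27 were covered, against 2, 2 and 2 in input. Of the 11 smooth muscle genes, 8, 9 and 7 were covered in the *Mavs*-/- RNase-only libraries, against 1, 0 and 1 in input. Their source was not tested. Groups of 3 libraries were not tested for outlying samples.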

How the results depend on the processing

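Across 191 alternative values for 14 results, 172 kept their direction, or for counts stayed within 1.5 times the main value. The replicate-block values count among the 172, although they cannot change direction. The shares by transcript part, the relative position, the covered share and the 3 window measures kept their direction under all alternatives run, with the 3′ UTR difference between 29.6 and 35.9 percentage points. Kept genes numbered 336 in the main count, 99 with support in 3 of 3 libraries, 1071 with 1 of 3 and 38 with a minimum area of 1000; leaving out a library gave 180 to 291, with 210, 180 and 206 without RNase-only replicates 1, 2 and 3. Without mitochondrial genes 320 remained, and without the genes of the intestinal and smooth muscle lists 335. Only 1 gene of the intestinal list and 0 of the smooth muscle list were kept, so leaving them out could hardly change the count. It says nothing about intestinal genes that are not listed. Regions outside input numbered 4664, 1452 with 3 of 3 support and 1191 with a minimum area of 1000, and 1814 to 4738 with a library left out, lowest without RNase-only replicate 2 (1814) and then replicate 3 (2368). The genotype difference in kept share was −0.54 points with equal numbers of peaks and −0.73 to 3.55 with a library left out, and that in outside share −1.36 to 1.77, so neither has a stable sign. The length difference was −0.17 nt when at least 50% of a peak had to lie under input to count as inside. The causes were not tested. Other support does not enter per-library shares or lengths and was not run for them. Whether replicate numbers pair the fractions could not be told. Same-numbered deviations over 6471 genes correlated at −0.005, −0.057 and −0.030, but the fractions covered mostly different genes. With the replicate block the 3′ UTR difference was 34.9 points (exact sign-flip p = 0.25, the smallest possible). The block leaves a difference of means unchanged, so it could not alter a direction. The lists cannot show RNA below the authors' thresholds, and the depth behind a missing peak is unknown.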
